A study of Homo sapiens with 6 samples.

Results

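The IER genes and the ZFP36 mRNA decay factors were examined as a set of 10 early response genes, namely IER2, IER3, IER5, IER5L, ZFP36, ZFP36L1, ZFP36L2, ARC, RHOB and TRIB1. They were taken by symbol from the 28395 genes of the authors' deposited comparison, and each symbol matched 1 row. Messenger RNA was sequenced in A375, an established human melanoma line labelled as wild type (WT), after 6 h with ozonated olive oil (OZO) or with plain olive oil (OLO), the control. Both oils were given at 0.01% to cells kept in DMEM with fetal bovine serum, and the labels hold 3 libraries of each group. A375 is a single line, no untreated library entered the comparison, and the p-values measure the spread between these libraries. The labels do not say whether the libraries of a group came from separate cultures, while the study describes its A375 transcriptome values as coming from independent experiments.

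The members are genes that many cells switch on within minutes to hours of growth factors or stress. Most such mRNAs are short lived, because AU-rich stretches in their 3′ untranslated region (UTR) recruit proteins that remove the poly(A) tail. ZFP36, ZFP36L1 and ZFP36L2 are zinc finger proteins that do this, and ZFP36 mRNA is itself an early response transcript that carries such stretches. The IER genes code for small proteins of the early response, ARC for a synaptic protein that forms capsids, RHOB for a small GTPase on endosomes and TRIB1 for a pseudokinase that brings substrates to the ubiquitin ligase COP1.

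In OZO-treated cells 5 of the 10 mRNAs rose. They were ARC (21.1-fold), ZFP36 (13.1-fold), RHOB (4.13-fold), IER2 (2.11-fold) and IER5 (1.77-fold). None fell, at an adjusted p under 0.05 in the deposited limma-voom table or at an unadjusted p under 0.05 (0 genes in both cases). The other 5 did not pass the test, and IER3 was barely detected. Of all genes tested, 7.04% passed, 3.98% higher and 3.06% lower in OZO. For the 13773 genes that averaged 10 reads or more in a library, which include 9 of the members, 13.6% passed, 7.75% higher and 5.89% lower. In whole cultures, a change in the share of cells that express a gene and a change in its RNA per cell cannot be told apart.

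Because ZFP36 proteins act through AU-rich elements, the 3′ UTRs were searched for the heptamer TATTTAT, the core that ZFP36 proteins bind, written as DNA. The 29-base stretches below hold the richest site of each member with a match. Bases are those of the sense strand of the genome build GRCh38 and the heptamers are in capitals.
ZFP36 (chr19:39409189-39409217, plus strand): cttTATTTATgacgacttTATTTATtcta
IER5 (chr1:181092447-181092475, plus strand): cttccttTATTTATTTATTTATttaatta
IER3 (chr6:30743648-30743676, minus strand): aattaaTATTTATatgTATTTATgtacgt
ZFP36L1 (chr14:68788336-68788364, minus strand): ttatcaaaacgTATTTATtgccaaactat
ZFP36L2 (chr2:43223448-43223476, minus strand): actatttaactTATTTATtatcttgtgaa

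The 5 stretches differ in how the heptamers are packed. IER5 has 3 that overlap into 1 run in a 3′ UTR of 3014 bases, with a further one elsewhere. ZFP36 has 2 within the stretch shown and 3 in its UTR of 708 bases, and IER3 has 4 in 737 bases. ZFP36L1 and ZFP36L2 have 3 each in UTRs of 1871 and 1917 bases. The longer nonamer TTATTTATT, which contains the heptamer, was found 3 times in IER5 and once each in ZFP36, ZFP36L1 and ZFP36L2.

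IER2, IER5L, ARC, RHOB and TRIB1 had no heptamer. Of the 12402 genes with at least 10 reads and an annotated 3′ UTR, 38% held a heptamer, 7.8% held 3 or more and 10.2% held a nonamer. The presence of a heptamer did not separate the members that rose from those that did not. ZFP36 and IER5 hold heptamers and rose, ARC, RHOB and IER2 hold none and rose, and ZFP36L1 and ZFP36L2 hold heptamers and did not pass the test. A match describes these letters and is no measurement of binding.

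**Figure D1:**
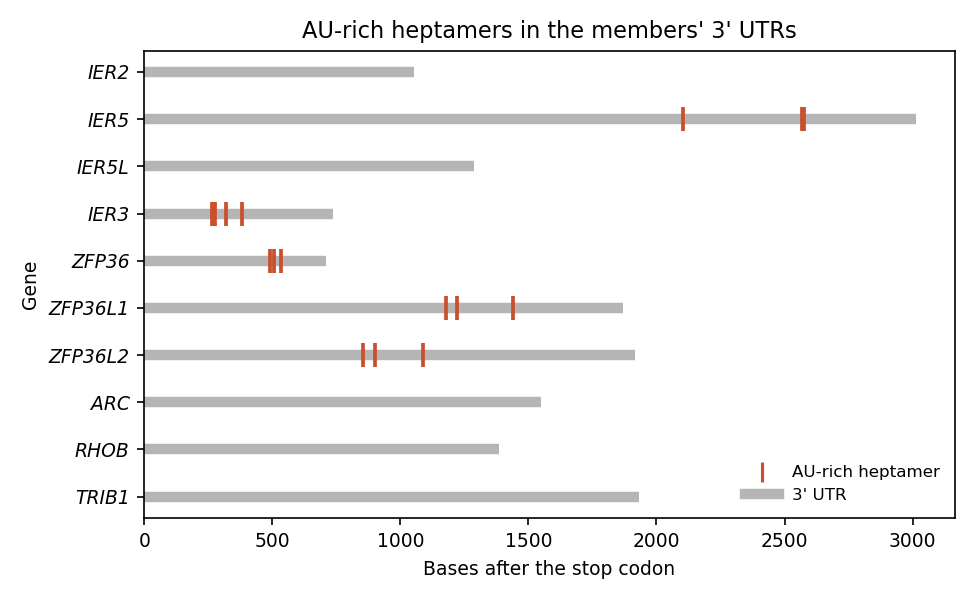
Map of the 3′ UTR of each member as a grey bar (horizontal axis, bases after the stop codon) with each TATTTAT heptamer as a vertical mark. IER5, IER3, ZFP36, ZFP36L1 and ZFP36L2 carry marks, which lie close together in ZFP36 and in the run of IER5, and the bars of the other 5 members are empty.

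All 10 genes are short in exons, a feature that the choice of members did not use. RHOB, IER5 and IER5L have 1 exon in the GENCODE canonical transcript, IER2, IER3, ZFP36, ZFP36L1 and ZFP36L2 have 2, and ARC and TRIB1 have 3. Among the 12402 genes 12% had 3 exons or fewer, and the median was 9. Transcripts of the members ran from 1237 bases (IER3) to 4201 bases (IER5), against a median of 3517.5.

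IER2 codes for a nuclear protein of the early response and lies at chr19:13150411-13154911. Its level was 45.9 CPM (reads of a gene scaled to a common library total) in OLO and 96.9 CPM in OZO. The log2 fold change was 1.08 (SE 0.10, 95% confidence interval 0.81 to 1.35, n = 3 libraries per group) with a deposited adjusted p of 0.0108 by limma-voom. This put IER2 at place 403 of 13773 when genes were ordered from the largest rise down. Group levels here and below were derived from the deposited mean and fold change, since the table was used without values per library. Whether the single libraries of OLO and OZO overlap was therefore not seen. Reads per group below are scaled to 1 mean library size and are not the counts of that group.

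IER5, at chr1:181088700-181092900, codes for a nuclear protein that works with protein phosphatase 2A and the heat shock factor HSF1. It stood at 67.0 CPM in OLO and 119 CPM in OZO, a log2 fold change of 0.82 (SE 0.11, interval 0.53 to 1.11). The deposited adjusted p was 0.0225 (limma-voom, n = 3 per group). IER5 had the smallest change of the 5 members that rose.

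IER5L is the paralog of IER5 and lies at chr9:129175552-129178261. It was lower in expression, with 3.03 CPM in OLO and 2.22 CPM in OZO, or about 55.3 and 40.3 reads at the mean library size. Its log2 fold change of -0.45 (SE 0.25, interval -1.08 to 0.18) had a deposited adjusted p of 0.249 in limma-voom. The same adjusted p was shared by the 7012 genes with no read in any library, whose unadjusted p of 0.133 came just behind that of IER5L at 0.124. Adjusted over genes with at least 10 reads alone it was 0.262. The intervals of IER5 and IER5L do not overlap, although the difference between both genes was not tested.

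IER3, at chr6:30743199-30744547, codes for a membrane protein that modulates cell survival. It had about 2.39 reads in OLO and 1.73 in OZO at the mean library size. Both are under the floor of 3 reads that a count of 0 allows, so no fold is given. Its deposited adjusted p was 0.822 in limma-voom, and a change was not detectable at this depth.

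**Figure D2:**
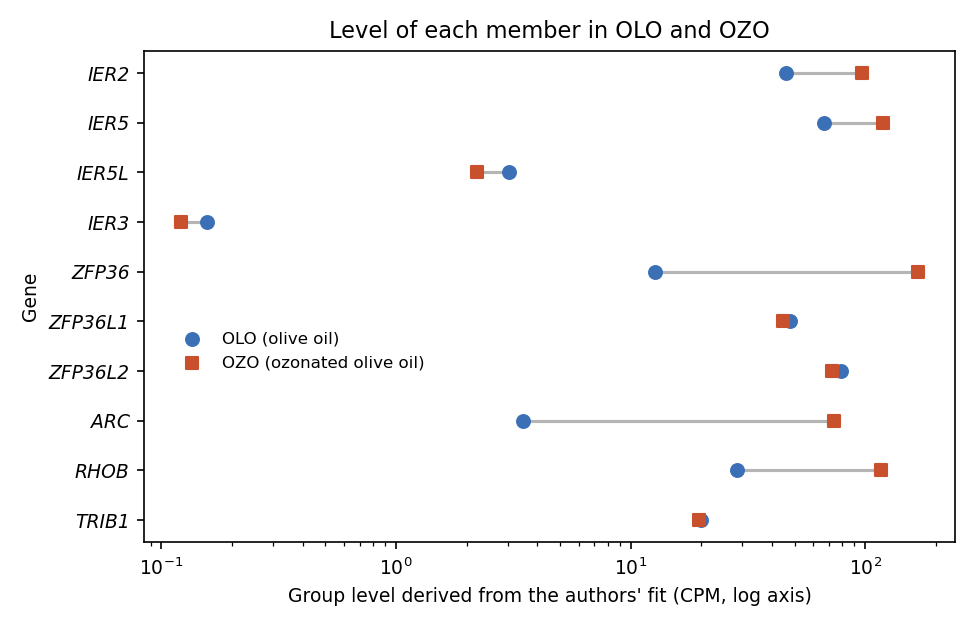
Level of each member in OLO and OZO in CPM on a log axis, derived from the deposited mean and fold change, 1 point per group and no value per library. ARC moves from 3.49 to 73.6 CPM and ZFP36 from 12.8 to 168, ZFP36L1, ZFP36L2 and TRIB1 barely move, and IER3 is at the floor in both groups.

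The ZFP36 family divided. ZFP36, also called tristetraprolin, lies at chr19:39406847-39409407. It was at 12.8 CPM in OLO and 168 CPM in OZO, or about 235 and 3090 reads at the mean library size. Its log2 fold change was 3.72 (SE 0.12, interval 3.41 to 4.03), with a deposited adjusted p of 0.00163 by limma-voom. It ranked 10 of 13773 by fold change and 11 of 28395 by p-value.

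ZFP36L1 and ZFP36L2 did not pass. ZFP36L1 (chr14:68787655-68796243) had 47.8 CPM in OLO and 44.8 in OZO, a log2 fold change of -0.09 (SE 0.22) with an interval of -0.65 to 0.46 and a deposited adjusted p of 0.798. ZFP36L2 (chr2:43222402-43226606) had 79.1 and 72.0 CPM, a log2 fold change of -0.14 (SE 0.11) with an interval of -0.42 to 0.15 and a deposited adjusted p of 0.421 in limma-voom. Both upper limits lie far under the lower limit of ZFP36, and the difference between the paralogs was not tested. Neither interval holds a change of 2-fold in either direction, that is, of 1 on the log2 scale.

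Levels can be compared between genes only per transcript length. In OLO, CPM per kilobase ran from ZFP36L2 (21.4) and ZFP36L1 (15.8) down to ZFP36 (7.31). In OZO ZFP36 came first at 96.1, before ZFP36L2 at 19.5 and ZFP36L1 at 14.9. Among all members, IER2 (21.7) and ZFP36L2 (21.4) led in OLO and were followed by IER5 (16.0), ZFP36L1 (15.8), RHOB (12.0), ZFP36 (7.31), TRIB1 (5.58), ARC (1.18) and IER5L (1.12), all in CPM per kilobase. In OZO ZFP36 (96.1) led, before RHOB (49.5), IER2 (45.9), IER5 (28.3) and ARC (24.9). The spread of single libraries was not analysed here, so neighbours in these orders, such as IER2 and ZFP36L2 in OLO, cannot be separated.

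ARC lies at chr8:142611049-142614479. It went from 3.49 CPM, about 63.8 reads, in OLO to 73.6 CPM, about 1354 reads, in OZO, with reads at the mean library size. The log2 fold change of 4.40 (SE 0.28, interval 3.68 to 5.12) ranked 5 of 13773 and had a deposited adjusted p of 0.00514 (limma-voom). It was the largest change among the members, though its interval overlaps that of ZFP36.

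RHOB, at chr2:20447074-20449440, stood at 28.4 CPM in OLO and 117 CPM in OZO. Its log2 fold change of 2.04 (SE 0.27, interval 1.36 to 2.73) ranked 74 of 13773, with a deposited adjusted p of 0.0199 by limma-voom.

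TRIB1, at chr8:125430358-125438403, had 20.05 CPM in OLO and 19.6 CPM in OZO. The log2 fold change was -0.03 (SE 0.23) with a deposited adjusted p of 0.939 in limma-voom, and the interval of -0.62 to 0.56 leaves room for changes of up to about that size in either direction.

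**Figure D3:**
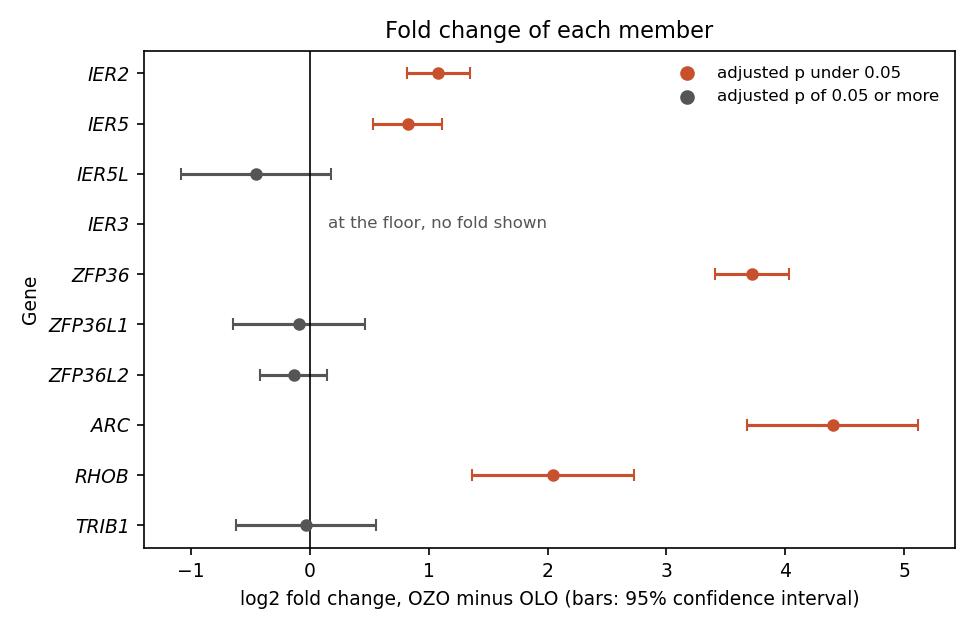
log2 fold change of each member, OZO minus OLO (horizontal axis), with 95% confidence intervals as bars, orange for an adjusted p under 0.05 and grey otherwise, and no fold shown for IER3 at the floor. ARC (4.40), ZFP36 (3.72), RHOB (2.04), IER2 (1.08) and IER5 (0.82) lie wholly above 0, while the intervals of IER5L, ZFP36L1, ZFP36L2 and TRIB1 cross 0.

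**Figure D4:**
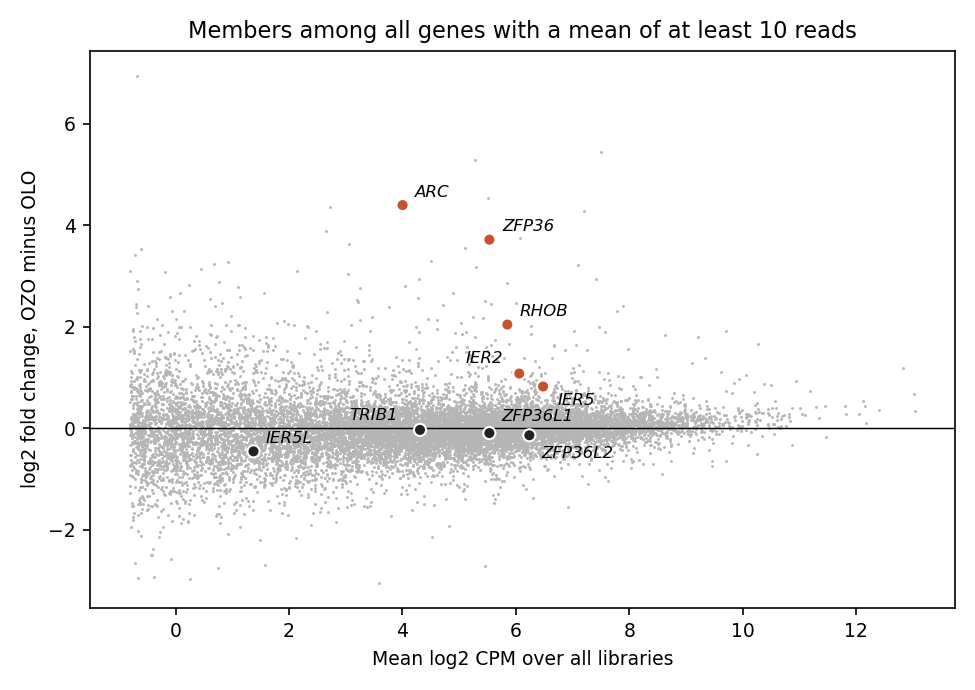
log2 fold change, OZO minus OLO (vertical axis), against mean log2 CPM (horizontal axis) for the 13773 genes that averaged 10 reads or more, with 9 members marked by name, orange for an adjusted p under 0.05 and black otherwise. ARC and ZFP36 lie far above the main cloud, and ZFP36L1, ZFP36L2 and TRIB1 lie within it near 0.

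Of 10 close relatives and partners of RHOB and TRIB1, 0 rose and 1 fell, and at an unadjusted p under 0.05 the counts were 0 and 3 (limma-voom). The gene that fell was RHOC, another small GTPase, with a log2 fold change of -0.20 (SE 0.03, deposited adjusted p 0.0337). RHOA, a small GTPase of stress fibres, had 0.14 (adjusted p 0.249) and ARHGDIA, which holds such GTPases inactive in the cytosol, had -0.15 (adjusted p 0.249).

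The pseudokinases related to TRIB1 missed the threshold in the deposited limma-voom table, and their calls depended on the processing. The value of TRIB2 was -1.49 on the log2 scale and had a wide SE of 0.35 (adjusted p 0.0804), and TRIB3, a gene of the integrated stress response, had -0.36 (adjusted p 0.165). TRIB2 passed as a fall when p-values were adjusted over genes with at least 10 reads (adjusted p 0.0421), and both passed as falls after the median of all genes was subtracted. COP1, the ubiquitin ligase that TRIB1 serves, had -0.02 (adjusted p 0.844). The median log2 fold change of the 10 was 0.04, against -0.01 over all 13773 genes.

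Promoter sequences are shown next because ZFP36, IER2, IER5 and RHOB rose together while IER5L, the paralog of IER5, did not. The RefSeq table (GRCh38.p14) held 7 promoters of 6 members, and IER3, ZFP36L2, ARC and TRIB1 were without an entry. Each line gives the 250 bases before the start of the transcript on its own strand, with matches to the motifs named below in capitals.
ZFP36 (chr19:39406597-39406846, plus strand): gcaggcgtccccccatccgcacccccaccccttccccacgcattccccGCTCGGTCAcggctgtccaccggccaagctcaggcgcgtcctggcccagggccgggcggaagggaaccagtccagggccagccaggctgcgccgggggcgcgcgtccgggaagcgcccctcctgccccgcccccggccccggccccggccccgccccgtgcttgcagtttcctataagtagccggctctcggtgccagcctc
IER2 (chr19:13150161-13150410, plus strand): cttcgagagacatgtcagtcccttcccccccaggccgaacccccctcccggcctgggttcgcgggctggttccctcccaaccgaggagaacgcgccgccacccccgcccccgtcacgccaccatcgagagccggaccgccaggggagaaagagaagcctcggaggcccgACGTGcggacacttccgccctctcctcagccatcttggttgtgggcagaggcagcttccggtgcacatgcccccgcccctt
IER5 (chr1:181088450-181088699, plus strand): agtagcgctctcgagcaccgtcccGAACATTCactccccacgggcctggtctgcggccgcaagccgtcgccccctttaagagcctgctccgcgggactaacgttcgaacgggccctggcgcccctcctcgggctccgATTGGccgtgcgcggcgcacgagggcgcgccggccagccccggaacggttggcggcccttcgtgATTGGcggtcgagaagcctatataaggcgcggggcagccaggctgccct
IER5L (chr9:129178262-129178511, minus strand): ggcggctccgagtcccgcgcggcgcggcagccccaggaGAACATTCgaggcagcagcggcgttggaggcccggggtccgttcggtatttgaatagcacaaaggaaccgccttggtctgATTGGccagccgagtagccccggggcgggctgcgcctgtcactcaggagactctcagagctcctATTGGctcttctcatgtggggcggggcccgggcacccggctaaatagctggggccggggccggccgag
RHOB (chr2:20446824-20447073, plus strand): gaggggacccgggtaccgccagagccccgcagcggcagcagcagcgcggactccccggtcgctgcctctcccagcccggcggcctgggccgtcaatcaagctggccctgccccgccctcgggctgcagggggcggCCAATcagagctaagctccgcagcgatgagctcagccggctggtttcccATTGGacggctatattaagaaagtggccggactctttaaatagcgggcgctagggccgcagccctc

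IER5 and IER5L carried the same pair of motifs. Both promoters held 1 match to a short heat shock element pattern (GAANNTTC), at -226 bases from the start in IER5 and -212 in IER5L. This pattern was found in 4.27% of 15872 promoters of genes with at least 10 reads. Each also held 2 CCAAT boxes (CCAAT, found in 33.2%), at -113 and -49 in IER5 and at -132 and -68 in IER5L. The level of IER5 rose and that of IER5L did not pass the test, so these letters did not separate the paralogs.

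RHOB held 2 CCAAT boxes, at -115 and -66 bases. ZFP36 held 1 core of the antioxidant response element (TGACNNNGC, found in 11.7%) at -202, and IER2 held 1 hypoxia response core (ACGTG, found in 22.2%) at -81. Of the ZFP36L1 promoters, not printed, the first held 1 antioxidant core and 1 CCAAT box, and the other held 1 heat shock element and 1 cAMP response element (TGACGTCA, found in 2.41%). None of the 7 promoters matched the serum response element (found in 1.05%), AP-1 (TGANTCA, found in 4.62%) or EGR (GCGNGGGCG, found in 12.8%) in this window. Both strands were searched, and the motifs were chosen after values of the members were known. A motif name here stands for a match to its letters and is no measurement of binding.

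The mRNAs of proteins that carry out decay downstream of ZFP36 all changed by less than 2-fold, with log2 fold changes from -0.58 to 0.67. Of 24 genes for deadenylation, decapping and 5′ to 3′ decay, 6 rose, 1 fell and 17 did not pass. The share that passed was 29.2%, against 13.6% of all genes with at least 10 reads. Their median log2 fold change was 0.13, against -0.01 over all genes with at least 10 reads. After the median of every gene in the table, unread ones included, was subtracted, the split became 4 higher and 4 lower. With the median of genes with at least 10 reads subtracted instead, the split stayed at 6 higher and 1 lower. DCP1A, which activates the decapping enzyme, rose by a log2 fold change of 0.67 (SE 0.03, deposited adjusted p 0.00229 by limma-voom). The antiproliferative adaptors TOB1 and TOB2, which link RNA-binding proteins to deadenylases, rose by 0.59 and 0.64 on the log2 scale (adjusted p 0.00692 and 0.0136).

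CNOT genes, named after the CCR4-NOT deadenylase complex that ZFP36 recruits, went both ways. CNOT4, a ubiquitin ligase, had a log2 fold change of 0.46 (adjusted p 0.0154, limma-voom). CNOT6L, a catalytic subunit of the complex, had 0.38 (adjusted p 0.0328), while CNOT9 had -0.42 (adjusted p 0.0201, limma-voom). CNOT1, the scaffold that ZFP36 binds, had 0.17 (SE 0.05) and an adjusted p of 0.151. DDX6, a helicase of translational repression, had 0.14 (adjusted p 0.388).

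Of 11 other RNA-binding proteins of AU-rich or related 3′ elements, 4 rose and 0 fell, and at an unadjusted p under 0.05 the counts were 6 and 1 (limma-voom). With the median of all genes subtracted, unread ones included, the split was 3 higher and 1 lower. Subtracting that of genes with at least 10 reads left it at 4 higher and 0 lower. PUM2, a translational repressor, rose by a log2 fold change of 0.20 (SE 0.03, adjusted p 0.0365). RC3H1 (Roquin-1), which recognises stem-loops, rose by 0.59 (adjusted p 0.0159), and ZC3H12A (Regnase-1), an endonuclease of cytokine mRNAs, by 1.07 (adjusted p 0.0343).

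The RNA stabiliser ELAVL1, or HuR, which shares AU-rich targets with ZFP36, had a log2 fold change of -0.19 (SE 0.05) and missed the limma-voom threshold at an adjusted p of 0.0917. ELAVL1 passed as a fall when p-values were adjusted over genes with at least 10 reads (adjusted p 0.0483). It also passed as a fall after the median of all genes was subtracted. HNRNPD (AUF1) had 0.05 (adjusted p 0.405) and CELF1 had 0.14 (adjusted p 0.510). The median of the 11 genes was 0.20.

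ZFP36 protein is held inactive when the kinase MK2, downstream of p38, phosphorylates it and 14-3-3 proteins bind. Of 11 genes of this branch, 1 rose and 4 fell in limma-voom, with a median log2 fold change of -0.08. The gene that rose was YWHAG, a 14-3-3 protein, by 0.43 (SE 0.02, adjusted p 0.00424). Those that fell were YWHAH (-0.35, adjusted p 0.0135) and YWHAB (-0.18, adjusted p 0.0412), also 14-3-3 proteins, MAPK14, which codes for p38 alpha (-0.27, adjusted p 0.0246), and its activating kinase MAP2K6 (-0.49, adjusted p 0.0349).

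MAPKAPK2, the gene for MK2, had a log2 fold change of 0.11 (SE 0.03) and an adjusted p of 0.0888 in limma-voom. With p-values adjusted over genes with at least 10 reads, MAPKAPK2 passed as a rise (adjusted p 0.0467). The abundant 14-3-3 genes YWHAZ and YWHAQ had 0.01 (adjusted p 0.884) and 0.12 (adjusted p 0.249). These values are mRNA levels and do not measure the phosphorylation of ZFP36.

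mRNAs known as targets of the ZFP36 family moved in both directions. Of 21 in the table, IER3 included, 5 rose, 3 fell and 13 did not pass in limma-voom, and 16 had at least 10 reads, with a median log2 fold change of 0.42. FOS, a transcription factor subunit, rose most, from 6.24 to 245 CPM, a log2 fold change of 5.29 (SE 0.29, adjusted p 0.00388). DUSP1, a phosphatase of p38 and JNK, rose by 3.29 (adjusted p 0.00685) and PTGS2, a prostaglandin synthase, by 1.44 (adjusted p 0.0326).

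The chemokine gene CXCL1 also rose, with a log2 fold change of 1.65 (adjusted p 0.0415). Among those that fell were CCND1, which codes for cyclin D1 (-1.10, adjusted p 0.0154), and the chemokine gene CCL2 (-1.67, adjusted p 0.0377). IL1B, a cytokine gene, also passed (adjusted p 0.0100 in limma-voom), but it had only about 3.44 reads in OLO at the mean library size. In OZO it stood at 0.0305 CPM, against 0.0304 CPM for a gene without a read in any library. On the scale of the mean library, IL1B was at least 1.13-fold lower against a floor of 3 reads.

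CDK6, a partner of cyclin D1, had a log2 fold change of -0.10 (adjusted p 0.447) and VEGFA, an angiogenic factor, had 0.56 (SE 0.16, adjusted p 0.135) in limma-voom. The rise of ZFP36 mRNA and the values of these targets were measured in the same 6 libraries at 1 time, and decay rates were not measured.

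Other early response genes that code for no DNA-binding factor rose more often than they fell. Of 29 such genes 13 rose, 1 fell and 15 did not pass in limma-voom, and at least 10 reads were found for 27, with a median log2 fold change of 0.76. PPP1R15A (GADD34), which ends the block of translation in the integrated stress response, rose by 2.40 on the log2 scale (SE 0.08, adjusted p 0.00166), and GADD45B, a stress sensor upstream of p38, by 1.90 (adjusted p 0.00296). BTG1 and BTG2, relatives of TOB1 that bind deadenylases, rose by 0.93 (adjusted p 0.00446) and 1.96 (adjusted p 0.00734), and the survival gene MCL1 rose by 1.05 (adjusted p 0.00512).

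The single early response gene that fell was SGK1, a kinase of ion transport, with a log2 fold change of -0.85 (SE 0.07, adjusted p 0.0087, limma-voom). THBS1, a matrix protein, had -0.73 with an SE of 0.32 (adjusted p 0.249), and ERRFI1, an inhibitor of EGFR, had 0.34 (adjusted p 0.147). PTGS2 stands in this list as well as among the ZFP36 targets.

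**Figure D5:**
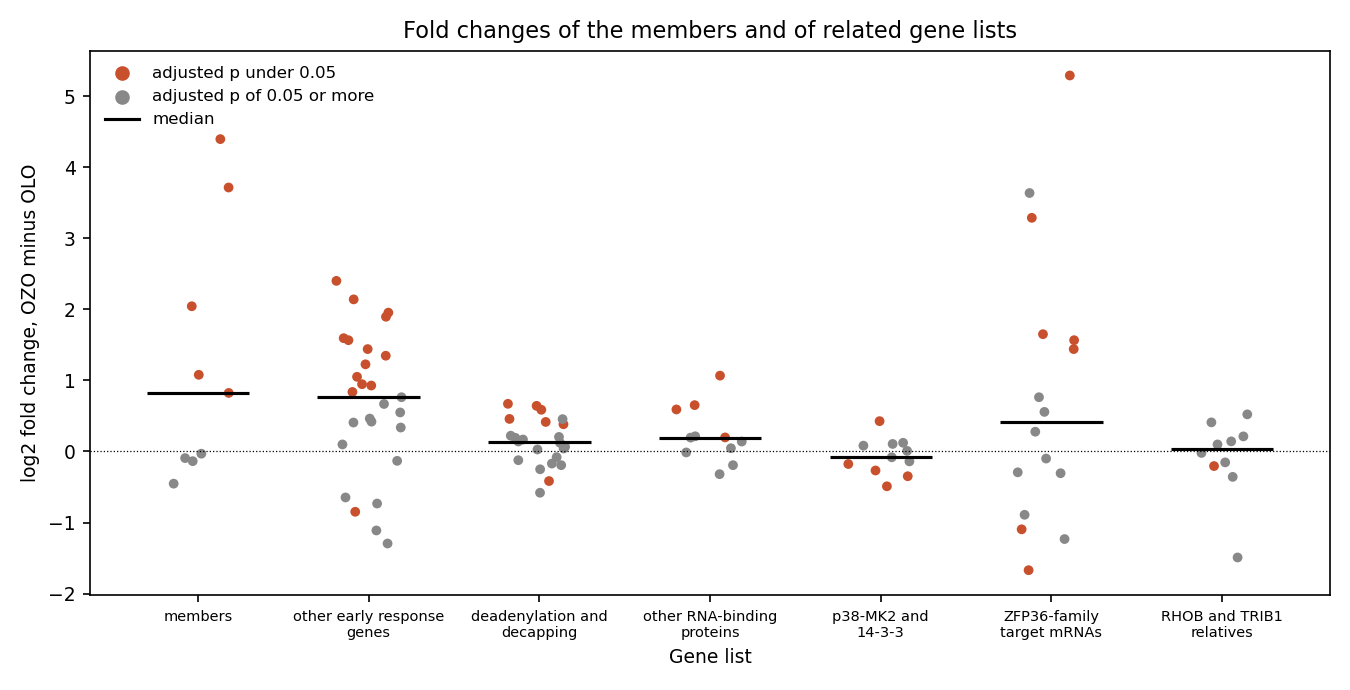
log2 fold change, OZO minus OLO (vertical axis), of the members and of genes in 6 related lists, 1 point per gene that averaged 10 reads or more, coloured by whether the deposited adjusted p was under 0.05, with a line at each median. The medians are 0.82 for the members, 0.76 for other early response genes and 0.42 for ZFP36-family targets, and between -0.08 and 0.20 for the other 4 lists.

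Shares of genes with at least 10 reads that passed the test were 55.6% for the members, 51.9% for other early response genes, 45.5% for the p38 branch, 43.8% for targets, 36.4% for RNA-binding proteins, 29.2% for decay genes and 10% for relatives of RHOB and TRIB1, against 13.6% of all such genes. These shares are descriptions, since the members and lists were chosen with results of these data known.

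The geometric mean library size that voom used, as recovered from the deposited values, was 18409902. It may include normalization factors, and whether reads or read pairs were counted is not given. The labelled cell type was checked against its markers, none of which passed the test. Of 9 melanocyte and melanoma markers 6 had at least 10 reads, led by SOX10, and the defining pigment genes TYR, PMEL and DCT were unread or under that mean. All 9 summed to 107.3 CPM in OLO and 69.7 CPM in OZO, mostly from SOX10 (68.7 and 36.3 CPM). The 4 markers of dedifferentiated melanoma summed to 378.8 CPM in OLO and 302.1 CPM in OZO. Keratinocyte markers summed to 30.4 and 29.4 CPM, mostly KRT10, and leukocyte, endothelial and fibroblast markers summed to at most 2.59 CPM in either group. The part of these shifts in the members' changes was not tested.

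Genes that overlap 5 of the members could share their reads. In GENCODE 44, 8 other genes overlap IER2, IER3, IER5L, ZFP36L1 or ZFP36L2, 7 of them on the opposite strand, and 0 of the 8 are in the deposited table. The library kit keeps strand, but the use of strand in counting was not stated, so reads of these members and of their partners cannot be told apart. ZFP36, ARC, RHOB, IER5 and TRIB1 have no such overlap.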

How the data were processed

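RNA of A375 cells (OLO and OZO, 3 libraries each, grouped by the labels) was sequenced in paired-end mode. The authors aligned reads to hg38 with HISAT2 2.1.0, counted them with featureCounts 2.1.1 and compared groups with limma-voom 3.58.1. Normalization factors, filters on low counts and use of strand in counting are not given in the sources used here. The deposited table holds log2 values (fold change and mean log2 CPM), a score (moderated t and log-odds B) and a p-value with its adjustment. These comparison columns are the authors' own, and no test was rerun.

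Standard errors were computed as fold change divided by t, 95% intervals from the degrees of freedom that link t and p (5.02 to 5.24), and group levels as the mean plus or minus 0.5 times the fold change. Group levels are approximate because voom weights libraries. Reads per group use 1 mean library size for both groups, although unread genes had a log2 value 0.33 higher in OZO. For a count of 0 this value is set by library size, so the OZO libraries, as voom sized them, were smaller. Reads per group therefore differ from the counts in the libraries of each group. Reads were recovered from the lowest values, since voom adds 0.5 to each count: 100% of 11518 low genes fell on odd whole numbers (tolerance 0.01). The floor was 3 reads and covers counting error only. Standard errors, degrees of freedom, adjusted p-values, mean reads and centring were tested on simulated data without a set difference in library size. Group levels, reads per group and the sequence searches were not tested in this way.

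Genes passed at an adjusted p under 0.05 over 28395 genes. Named genes were the members, 9 fixed partners and, per list, up to 6 passing genes with the smallest p and up to 2 others with the highest mean, plus genes behind counts of 5 or fewer. Some genes that the rule names are counted but not reported here by name. Coordinates came from RefSeq GRCh38.p14, transcripts from GENCODE 44. The members and lists were chosen with earlier results of these data known. Alternatives were thresholds, adjustment over genes with 10 reads, and centring (Python 3.11.15, scipy 1.17.1).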

Additional observations from a re-analysis of the deposited data

How the results depend on the processing

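The count of members that rose stayed at 5 when fold changes were centred, when p-values were adjusted over genes with at least 10 reads or over genes with a symbol, and at an adjusted p under 0.1. It was 4 when a change of 2-fold was also required, which left out IER5, and 2 at an adjusted p under 0.01 (ARC and ZFP36). No member changed direction or its call under centring. At an adjusted p under 0.01 the counts were 7 for other early response genes, 2 for decay genes, 1 for RNA-binding proteins, 1 for the p38 branch, 2 for targets and 0 for relatives of RHOB and TRIB1. With a change of at least 2-fold also required they were 0 for decay genes, 1 for RNA-binding proteins, 0 for the p38 branch and 0 for relatives. The count for relatives was 2 (RHOC and TRIB2) at an adjusted p under 0.1, 2 when adjusted over genes with at least 10 reads and 3 when centred on all genes, which added TRIB3. Adjustment over genes with at least 10 reads gave 17 other early response genes and 7 decay genes. It gave 5 RNA-binding proteins, which added ELAVL1, 6 genes of the p38 branch, which added MAPKAPK2, and 10 targets, without IL1B. Shares of all genes at these other settings are not given here, so these counts cannot be set against a background.

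Over all genes, which include 7012 unread ones with a shared log2 value of 0.33, the fold change had a median of 0.19. It was -0.01 over genes with at least 10 reads. No paired analysis was possible because the deposited table holds the comparison only. For that reason fits that leave out a library, a replicate block, edgeR and DESeq2 were not run. IER3 could not be compared at this depth.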

Other observations

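Genes with 2 or more TATTTAT heptamers in the 3′ UTR were compared with genes that have none, over the 12402 genes with at least 10 reads and an annotated 3′ UTR. This comparison was added after the data were seen. Among 7694 genes with 0 heptamers 6.43% rose and 6.28% fell, among 2633 genes with 1 heptamer 8.74% rose and 5.92% fell, and among 2075 genes with 2 or more 11.4% rose and 4.96% fell. The medians of the log2 fold change were -0.02, -0.01 and 0.04.

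Longer 3′ UTRs hold more heptamers, so the shares were also taken within 3 bands of UTR length. In the shortest band (2 to 798 bases) 11% of 82 genes with 2 or more heptamers rose and 3.66% fell, against 6.03% and 4.84% of 3596 genes with none. In the middle band (799 to 2279 bases) the shares were 13.3% and 2.61% of 459 genes, against 6.5% and 7.24% of 2692. In the longest band (2280 to 32870 bases) they were 10.8% and 5.74% of 1534 genes, against 7.33% and 8.11% of 1406. Within each band the genes with 2 or more heptamers still had longer 3′ UTRs than those with none. The medians were 594.5 against 346 bases in the shortest band and 1604 against 1339.5 in the middle band. In the longest band they were 4471.5 against 3267, so length was not equal within bands. Genes are not independent replicates, and these shares are descriptions without a test.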
